A study of Mus musculus with 23 samples.

Results

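THRAP3 (thyroid hormone receptor-associated protein 3) occupancy of chromatin was measured by chromatin immunoprecipitation sequencing (ChIP-seq) in Bmal1-/- and WT mouse β cells. The 4 peak lists, 2 replicates of each genotype, were taken by their labels from the 23 samples of the series. The Bmal1-/- lists held 12949 and 12226 peaks and the WT lists 808 and 6128 peaks, which merged into 21010 regions. The comparison asks whether loss of BMAL1 changes where THRAP3 sits on chromatin and how strongly. Both genotypes are β-TC6 cells, an insulinoma line from transgenic mice. In the Bmal1-/- line exon 8 of Bmal1 (Arntl in the annotation) was deleted with CRISPR/Cas9 and a neomycin resistance cassette, and the line is 1 hand-picked clone. The WT cells are labelled only as wild type, and whether they were cloned alike is not stated. The deletion and any other difference between the lines therefore cannot be told apart. Cells were asynchronous, were used between passages 5 and 15, and were fixed with disuccinimidyl glutarate and formaldehyde. Nothing states that the 2 replicates were separate experiments on separate days, so their spread may be technical.

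THRAP3 is a nuclear protein rich in serine and arginine. It is known as a partner of transcriptional coactivators and as a factor in pre-mRNA splicing and mRNA export, and it can be brought to chromatin by other factors without contacting DNA itself. BMAL1 pairs with CLOCK on the E-box CACGTG and drives Per, Cry, Nr1d1 and Dbp in the daily clock. The RNA-seq fit held 3 libraries each of Bmal1-/-, of a β-TC6 line with a CRISPR deletion in Clock, and of WT. The Clock knockout entered the estimate of spread and the filter only. In RNA-seq of the same lines the β-cell markers Ins1 (2360 ± 188 TPM in Bmal1-/- and 2310 ± 45.3 TPM in WT cells, SD, n = 3 each) and Pdx1 (580 ± 11.7 TPM in Bmal1-/- and 491 ± 9.65 TPM in WT cells) were present. All 9 β-cell markers examined were expressed, but not at one level: their median log2 difference was -0.50. By limma at an adjusted p under 0.01 and a log2 difference above 1, Nkx6-1, a β-cell transcription factor, was higher in Bmal1-/- (647 ± 7.83 TPM, against 265 ± 13.2 TPM in WT) and Slc2a2, the glucose transporter GLUT2, was lower (42.8 ± 8.24 TPM, against 109 ± 6.25 TPM in WT). The log2 differences of Ins2, Iapp, Mafa and Pcsk1 lay between -0.74 and -0.50. Markers of other endocrine cells were expressed too and differed by the same thresholds. Gcg (52.2 ± 2.44 TPM in Bmal1-/-, 476 ± 15.3 TPM in WT) and Sst (20.5 ± 3.23 TPM in Bmal1-/-, 88 ± 4.99 TPM in WT) were lower. Irx2 (33.5 ± 1.32 TPM in Bmal1-/-, 11.5 ± 0.564 TPM in WT) was higher. Thrap3 RNA was 79.6 ± 1.71 TPM in Bmal1-/- cells and 81.9 ± 7.98 TPM in WT cells. Its log2 difference was -0.04 with a standard error of 0.15 (limma on log2(TPM + 1), adjusted p = 0.852). Arntl RNA was 3.42 ± 0.104 TPM in Bmal1-/- cells and 3.79 ± 0.378 TPM in WT cells, so gene-level TPM did not show the deletion.

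Because the results turn on a few places, the DNA at the centre of the most occupied, the most different and the strongest genotype-limited regions is given first (GRCm38/mm10, plus strand, 120 bases at the region's centre, read from the reference genome). Capitals mark matches on either strand to AP-1 (TGANTCA) or to the core of the antioxidant response element (TGACNNNGC), and E-boxes (CACGTG) would be marked too.
Gclm promoter, highest mean level, chr3:122245608-122245727: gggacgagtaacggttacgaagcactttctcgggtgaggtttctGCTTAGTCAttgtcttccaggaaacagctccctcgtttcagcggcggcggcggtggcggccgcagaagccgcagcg
Hmox1 upstream, second in level, chr8:75083889-75084008: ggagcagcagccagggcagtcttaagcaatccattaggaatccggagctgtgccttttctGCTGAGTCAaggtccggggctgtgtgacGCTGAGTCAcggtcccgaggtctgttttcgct
Intergenic near Ezh2, high in all lists and without a match, chr6:47651042-47651161: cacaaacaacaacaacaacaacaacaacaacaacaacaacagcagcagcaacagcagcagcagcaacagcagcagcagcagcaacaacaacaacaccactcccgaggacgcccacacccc
Intergenic upstream of Trpc7, most reduced in Bmal1-/-, chr13:57017792-57017911: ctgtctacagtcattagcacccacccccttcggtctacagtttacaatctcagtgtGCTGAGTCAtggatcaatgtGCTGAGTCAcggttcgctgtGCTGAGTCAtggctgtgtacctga
Ephx1 intron, most raised in Bmal1-/-, chr1:181009819-181009938: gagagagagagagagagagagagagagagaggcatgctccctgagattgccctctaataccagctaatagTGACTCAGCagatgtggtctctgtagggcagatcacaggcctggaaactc
Upstream of Trim80, second most raised, chr11:115437720-115437839: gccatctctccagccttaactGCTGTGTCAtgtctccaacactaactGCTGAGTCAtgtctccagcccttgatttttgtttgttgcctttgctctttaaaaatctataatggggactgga
Kmt2a promoter, reduced in Bmal1-/-, chr9:44881358-44881477: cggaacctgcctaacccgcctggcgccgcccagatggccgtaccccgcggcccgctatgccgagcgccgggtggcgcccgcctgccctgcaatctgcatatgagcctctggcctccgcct
Ank promoter, strongest promoter of Bmal1-/- lists only, chr15:27466145-27466264: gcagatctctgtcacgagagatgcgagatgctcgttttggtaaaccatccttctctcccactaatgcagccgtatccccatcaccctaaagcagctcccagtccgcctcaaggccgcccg
Slc2a5 promoter, strongest promoter of WT lists only, chr4:150139133-150139252: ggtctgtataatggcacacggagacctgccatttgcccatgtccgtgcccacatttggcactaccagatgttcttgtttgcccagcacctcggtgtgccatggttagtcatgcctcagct
Tshz2 intron, strongest region of WT lists only and chosen after its values were seen, chr2:169930089-169930208: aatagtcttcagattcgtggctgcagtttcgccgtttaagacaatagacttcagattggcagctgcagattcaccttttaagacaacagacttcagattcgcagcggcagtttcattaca
The window upstream of Trpc7 held 3 copies of GCTGAGTCA, which match both AP-1 and the antioxidant element, and the Hmox1 window held 2. The windows at the Kmt2a, Ank and Slc2a5 promoters and in Tshz2 held none of the 3 motifs. The window near Ezh2 is a CAA and CAG repeat, of which 101 of 120 bases are masked as repeat in the reference. In the window upstream of Trim80, 101 of 120 bases are masked as well.

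Depth was similar across the 4 libraries, but the number of peaks was not. The Bmal1-/- libraries had 12734067 and 14961095 tags and the WT libraries 12296107 and 12882958. Tags inside peaks made up 1.86 and 1.67% of all tags in Bmal1-/-, against 0.111 and 0.76% in WT. WT replicate 1 stood apart from the other 3 libraries: it had 7.58 times fewer peaks than WT replicate 2 at nearly the same depth. Against WT replicate 2 alone, the Bmal1-/- lists were 2.11 and 2.00 times longer. The share of putative peaks removed for low enrichment over input was 39.0 and 43.1% in Bmal1-/- and 40.5 and 40% in WT. With 2 libraries against 2, an exact two-sided permutation test cannot give a p below 0.333, so the numbers, places and overlaps of peaks are given without a test.

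**Figure D1:**
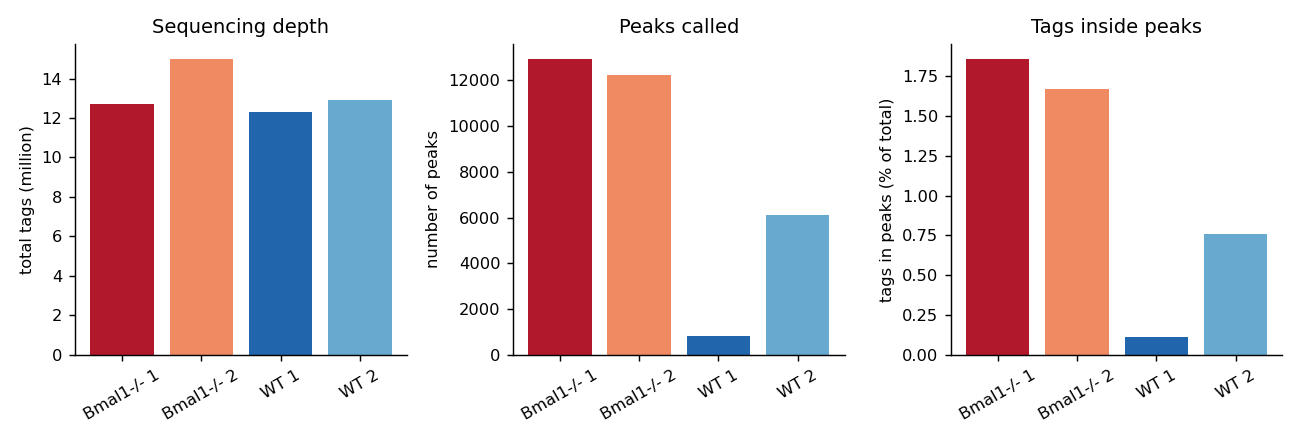
Sequencing depth in total tags, number of peaks and percent of tags inside peaks, each bar 1 library, Bmal1-/- in red and WT in blue. Depth lay between 12296107 and 14961095 tags, while peaks ran from 808 in WT replicate 1 to 12949 in Bmal1-/- replicate 1.

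The Normalized Tag Count, the tags of a peak scaled to a library of 10000000 tags, was also higher in Bmal1-/-. Over all peaks its median was 12.6 and 12 in Bmal1-/-, and 10.6 and 10.1 in WT. The caller's threshold of 11 or 12 tags corresponds to 8.64 and 8.02 in Bmal1-/- and 9.76 and 8.54 in WT. At a matched number of 808 peaks, the length of the shortest list, the median was 29.1 and 27.4 in Bmal1-/-, against 10.6 and 20.2 in WT. The median Fold Change vs Control of the same peaks, the ratio of tags in the immunoprecipitate to tags in the input, was 14.06 and 13.82 in Bmal1-/-, against 11.1 and 13.0 in WT. At 6128 peaks, the length of the WT replicate 2 list, the median tag count was 16.5 and 15.4 in Bmal1-/- and 10.1 in WT replicate 2. There the fold over input ran the other way, at 8.57 and 8.45 in Bmal1-/- and 9.63 in WT replicate 2. Both replicates of a genotype were set against the same single input. Peak widths were 249 and 245 bases in Bmal1-/- and 213 and 222 bases in WT, so tags were not counted over equal widths.

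Most regions were found in 1 list. Of the 21010 regions, 13017 (62%) were in 1 list, 510 (2.43%) were in all 4, and 4035 (19.2%) were in both Bmal1-/- lists and neither WT list. A further 1968 regions were in both Bmal1-/- lists and WT replicate 2. Only 40 regions were in both WT lists and neither Bmal1-/- list, a number limited by the 808 peaks of WT replicate 1. The strongest peaks were shared by all libraries. Of the 100 top-scored peaks of Bmal1-/- replicates 1 and 2, 98 and 98% were also in the WT replicate 2 list and 85 and 86% in the short WT replicate 1 list. Of the 100 top peaks of WT replicates 1 and 2, 97 and 95% were in the list of Bmal1-/- replicate 1. Below rank 6128 the share of Bmal1-/- peaks found in the other Bmal1-/- list was 36.8 and 36.3%, and in WT replicate 2 it was 12.3 and 11.2%.

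At matched numbers of top-scored peaks the 2 Bmal1-/- lists overlapped each other most. Among the top 808, 63.1% of peaks overlapped between the Bmal1-/- replicates by at least 1 base. Between genotypes the overlap was 53.8 and 56.6% for the 2 Bmal1-/- lists with WT replicate 2, and 38.9 and 42.3% with WT replicate 1. The 2 WT lists overlapped by 48.5%, less than either Bmal1-/- list overlapped WT replicate 2. Among the top 1000 peaks, without WT replicate 1, the Bmal1-/- pair overlapped by 61.7%, and the Bmal1-/- lists overlapped WT replicate 2 by 50.5 and 53.5%. At 6128 peaks these shares were 55.2% within Bmal1-/- and 37.2 and 38.9% between genotypes. WT has no second list of that length, so at 6128 peaks the difference between genotypes and the spread within WT cannot be told apart. Ranked by fold over input, the top 808 overlapped less in every pair, by 42.7% within Bmal1-/-, 28.1% within WT and 19.1% on average between genotypes. Replicates of a genotype share 1 input, so their ranks by fold are not independent.

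**Figure D2:**
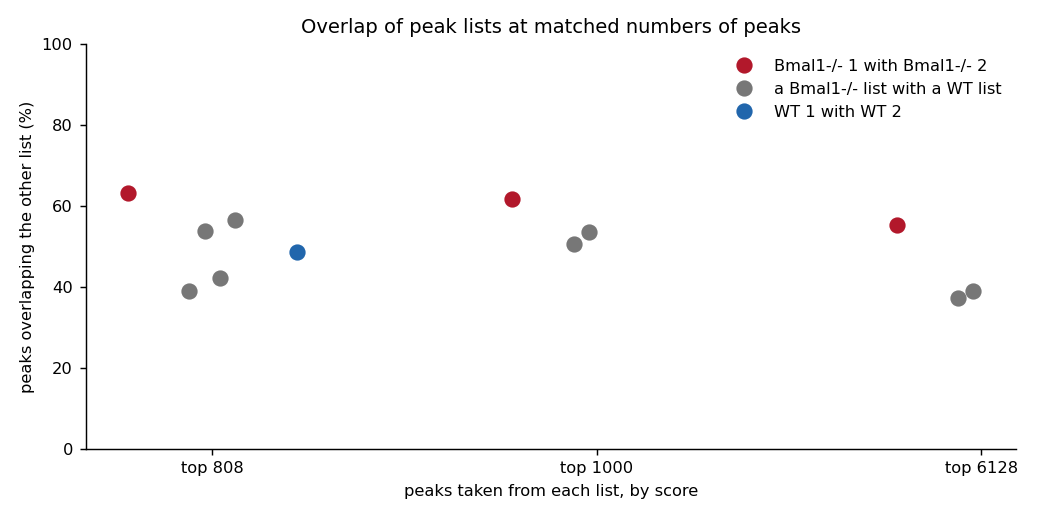
Percent of peaks that overlap the other list at 808, 1000 and 6128 top-scored peaks, each point 1 pair of libraries (red, the Bmal1-/- pair; grey, a Bmal1-/- with a WT library; blue, the WT pair). At 808 peaks the WT pair (48.5%) lies inside the range of the pairs between genotypes (38.9 to 56.6%) and the Bmal1-/- pair (63.1%) above it.

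Peaks of Bmal1-/- cells lay at promoters more often, by an amount that depended on the library. Within 1000 bases before to 100 after a transcript start lay 32.4 and 28.7% of all Bmal1-/- peaks, against 20.8 and 25.2% of WT peaks. Among the top 808 the shares were 30.3 and 23.3% in Bmal1-/- and 20.8 and 21.5% in WT, so Bmal1-/- replicate 2 lay closer to the WT lists than to its own replicate. Among the top 6128 they were 38.5 and 31.4% in Bmal1-/- and 25.2% in WT replicate 2. Introns held 35.4 and 41.3% of the top 808 peaks in Bmal1-/- and 40.8 and 39.4% in WT. Of the 510 regions found in all lists, 87 were at promoters, 225 in introns, 179 between genes and 19 in exons.

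AP-1 and antioxidant response element matches were common at the top-scored THRAP3 peaks of both genotypes, and E-boxes were not. In 200-base windows at the centres of the top 808 peaks, AP-1 matched in 27.6 and 30.2% of Bmal1-/- peaks and in 33.9 and 31.8% of WT peaks. Beside all peaks of each list, 2 kb away, 5.75 and 5.87% of windows of Bmal1-/- and 6.44 and 5.63% of WT matched. The antioxidant element matched in 30.8 and 31.2% of top Bmal1-/- peaks and 31.2 and 33.3% of top WT peaks, and the 2 motifs overlap in their letters (GCTGAGTCA holds both). The E-box, the site of CLOCK and BMAL1, matched in 3.09 and 3.71% of top Bmal1-/- peaks and 2.72 and 3.96% of top WT peaks, against 2.24 and 2.33% beside Bmal1-/- peaks and 2.35 and 1.91% beside WT peaks. Among 32843 RefSeq promoters of the same window length (GRCm38), AP-1 matched in 5.35%, the antioxidant element in 9.14% and the E-box in 5.45%. Over all peaks, AP-1 matched in 10.8 and 12.1% in Bmal1-/- and 33.9 and 15.9% in WT. The antioxidant element matched there in 13.9 and 14.2% in Bmal1-/- and 31.2 and 16.8% in WT. The E-box matched in 4.41 and 4.4% of all Bmal1-/- peaks and 2.72 and 3.89% of all WT peaks. At all promoter peaks its shares were 6.86 and 7.38% in Bmal1-/- and 5.36 and 6.6% in WT. AP-1 was mostly a feature of peaks away from promoters: 34.8 and 35.5% of top distal peaks matched in Bmal1-/- and 38.1 and 35.2% in WT. At top promoter peaks the GC box GGGCGG was the most frequent of the 9 motifs searched, at 53.1 and 48.9% in Bmal1-/- and 43.5 and 37.9% in WT. In the 510 regions of all lists AP-1 matched in 42.0%, and in the 4035 regions of both Bmal1-/- lists alone in 9.67%. In the 40 regions of both WT lists alone it matched in 20 (50%), and in the 2249 of WT replicate 2 alone in 11%. The 40 regions had to be in the short list of WT replicate 1, so these classes differ in peak rank as well as in genotype. These shares describe letters in windows, not bound factors.

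**Figure D3:**
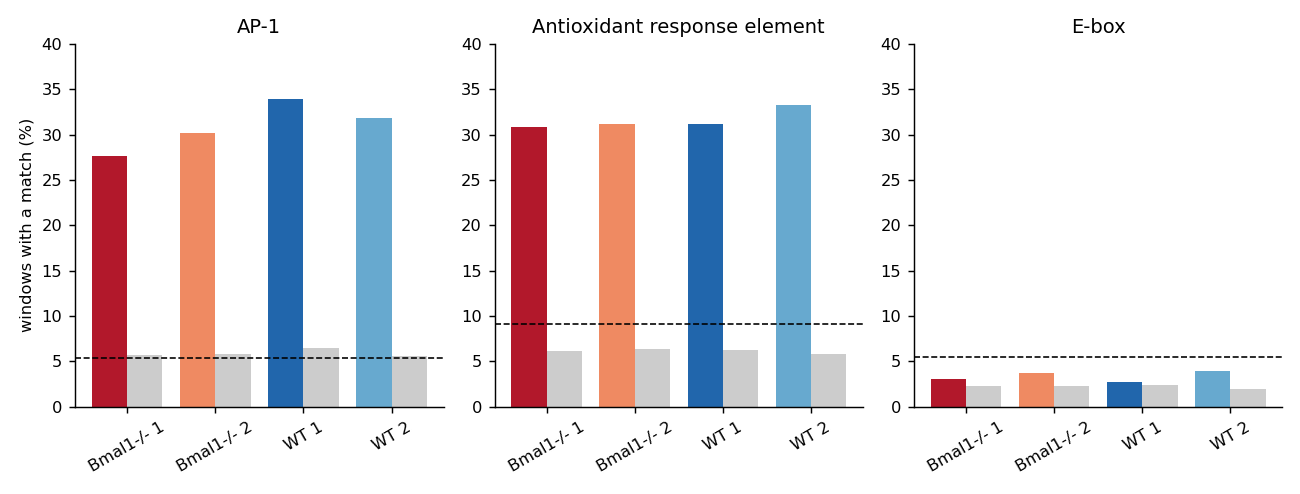
Percent of 200-base windows with a motif match, in colour for the top 808 peaks of each library (Bmal1-/- in red, WT in blue). Grey bars are windows 2 kb beside all peaks of the library, and the dashed line is the share of RefSeq promoters. AP-1 and antioxidant element matches stand at 27.6 to 33.9% in all 4 libraries, and E-box matches at 2.72 to 3.96%.

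The most occupied regions in all 4 libraries included several at genes of the antioxidant response, the programme that NRF2 with small MAF partners drives from antioxidant response elements. The promoter of Gclm, the modifier subunit of the enzyme that starts glutathione synthesis, had the highest mean level, with Normalized Tag Counts of 224.6 and 217.2 in Bmal1-/- and 64.2 and 118.8 in WT. Both Bmal1-/- values lay above both WT values. Hmox1, which encodes the haem-degrading heme oxygenase 1, had a region 9.67 kb upstream with 183.0 and 168.4 in Bmal1-/- and 71.6 and 136.6 in WT. A second Hmox1 region, 3.92 kb upstream, had 136.6 and 135.0 in Bmal1-/- and 52.9 and 85.4 in WT. The region 3.81 kb upstream of Gclc, the catalytic partner of Gclm, had 84.8 and 78.9 in Bmal1-/- and 29.3 and 70.6 in WT. At these regions WT replicate 2 lay nearer to the Bmal1-/- libraries than WT replicate 1 did.

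Of 24 antioxidant response genes, 9 (37.5%) had a region of all 4 lists within 10 kb of the gene, beside 435 of 21951 protein-coding genes (1.98%). They were Hmox1, Gclm, Gclc, Srxn1, Sqstm1, Ftl1, Pgd, Me1 and Mafg. The region 1.14 kb upstream of Ftl1, the ferritin light chain, had 58.1 and 63.5 in Bmal1-/- and 22.8 and 35.7 in WT. The promoter of Srxn1, which reactivates peroxiredoxins, had 37.7 and 31.4 in Bmal1-/- and 19.5 and 34.2 in WT, so its groups overlapped. The promoter of Mafg, a small MAF partner of NRF2, had 22.8 and 20.1 in Bmal1-/- and 12.2 and 21.0 in WT, which overlapped too. Of the same 24 genes, 5 had a promoter peak in all 4 lists (Gclm, Srxn1, Txn1, Me1 and Mafg). Across all protein-coding genes 86 of 21951 did (0.392%). In no other list of genes examined did more than 8.33% have such a region within 10 kb. The gene lists were chosen with earlier results of these data known, so these shares describe the lists and are not a test.

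Not every region of high level lay at a gene on the list of antioxidant response genes. Whether genes outside that list belong to the same programme was not tested. The intergenic repeat 55.8 kb from Ezh2 had 147.6 and 137.0 in Bmal1-/- and 71.6 and 137.4 in WT. The promoters of Gm11992 (153.9 and 129.0 in Bmal1-/-, 56.1 and 126.5 in WT) and Gstp2, a glutathione transferase (142.9 and 151.1 in Bmal1-/-, 50.4 and 114.9 in WT), were among the 10 highest. The promoter of Dnajc12, a cochaperone, had 161.0 and 130.3 in Bmal1-/- and 29.3 and 100.9 in WT. Introns of Myo18b, Ebf2 and Scnn1b, the β subunit of the epithelial sodium channel, were the others.

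Normalized Tag Counts at the 510 regions of all lists were higher in Bmal1-/- as a whole. The median was 26.7 in each Bmal1-/- library, and 11.4 and 20.2 in WT. Both Bmal1-/- values exceeded both WT values at 349 regions (68.4%), and both lay below at 7 (1.37%). The median log2 difference was 0.73, with a median standard error of 0.50 for a single region, and 0.35 without WT replicate 1. By limma on log2 Normalized Tag Count, 13 regions were higher in Bmal1-/- (2.55%) and 1 was lower (0.196%) at an adjusted p under 0.05, and 156 (30.6%) had an unadjusted p under 0.05. Per base of peak width the median log2 difference was 0.54, with 0 regions called higher and 1 lower. Taking out the median of each chromosome also takes out the shift common to all regions. The calls were then 5 higher and 10 lower, with or without the scaling used below. The largest called rise was in an intron of Ephx1 (2.03 ± 0.56 SE, limma, adjusted p = 0.0359). A region 242 kb from the start of Tbx3, a T-box factor, had 36.1 and 30.7 in Bmal1-/- and 9.76 and 12.4 in WT, and one 5.04 kb from March6, a ubiquitin ligase, 27.5 and 38.1 in Bmal1-/- and 9.76 and 12.4 in WT. Fbrsl1, Kif2c, Gfi1, Plb1, Angptl7, Slc38a1 and Gm10282 were the nearest genes of the next, with log2 differences between 1.24 and 1.49. The other 3 were near Rbp3, Tenm4 and Atrnl1, at 0.90 to 1.21. The region lower in Bmal1-/- lay near E2f6. A region had to be called in WT replicate 1 to be among the 510, so weakly bound regions are missing here. Over the 2478 regions of both Bmal1-/- lists and WT replicate 2, the log2 difference to WT replicate 2 was 0.42.

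Once this common shift was taken out by TMM scaling, a few regions differed from the rest in each direction. Both Bmal1-/- values lay above both WT values at 134 regions (26.3%) and below them at 132 (25.9%). limma called 8 regions higher (1.57%) and 8 lower (1.57%) in Bmal1-/-, with 110 (21.6%) at an unadjusted p under 0.05. Levels across the 510 regions correlated more between replicates (r = 0.903 within Bmal1-/-, 0.834 within WT, on log2 Normalized Tag Count) than between genotypes (0.707 to 0.812). These are correlations across regions, which are not independent replicates.

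The largest reduction was at an intergenic region 122 kb upstream of Trpc7 (chr13:57017687-57017987), whose 3 GCTGAGTCA copies are printed above. It had 33.0 and 27.4 normalized tags in Bmal1-/-, against 65.1 and 93.9 in WT, so both Bmal1-/- libraries lay below both WT libraries without any scaling. Relative to all shared regions the log2 difference was -2.09 ± 0.22 (SE, limma, adjusted p = 1.04e-05). Its input had 4 tags in Bmal1-/- and 0 in WT. The promoter of Kmt2a, a histone H3 lysine 4 methyltransferase, had 18.8 and 26.7 in Bmal1-/-, against 38.2 and 41.9 in WT. Its relative log2 difference was -1.55 ± 0.27 (limma, adjusted p = 0.00371). A weak region 17.1 kb from the start of E2f6, a repressor of the E2F family, had 9.42 and 6.68 in Bmal1-/- and 14.6 and 16.3 in WT (relative difference -1.67 ± 0.38, adjusted p = 0.0186). The other 5 were near Foxa2, in Htatip2, Ppp2r2b and Myom1, and in the intron at 4930503B20Rik, with relative differences between -1.29 and -1.03. In Htatip2, whose product is an oxidoreductase, the levels were 25.1 and 16 in Bmal1-/- and 19.5 and 37.3 in WT, so only the scaled values separated the genotypes.

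The largest rise relative to the rest was in an intron of Ephx1, microsomal epoxide hydrolase, a detoxification enzyme. It had 51.8 and 55.5 normalized tags in Bmal1-/-, against 10.6 and 16.3 in WT, with a relative log2 difference of 1.32 ± 0.24 (adjusted p = 0.00399). The region 2.77 kb upstream of Trim80 had 95.0 and 91.6 in Bmal1-/- and 17.9 and 35.7 in WT (1.18 ± 0.22, adjusted p = 0.00487). The promoter of Creg1, a secreted glycoprotein gene, had 58.9 and 62.2 in Bmal1-/- and 11.4 and 26.4 in WT (1.09 ± 0.25, adjusted p = 0.0187). The Zfat promoter had 74.6 and 65.5 in Bmal1-/- and 17.1 and 25.6 in WT (1.03 ± 0.23, adjusted p = 0.0186). Introns at Zdhhc19, Ntng1 and Papolb and the Gclm promoter made up the rest, with relative differences between 0.63 and 0.99. Of the Trim80 window, 101 of 120 bases are masked as repeat. With the input tags of each region as an offset, Trim80 alone of the 8 was still called (2.63, adjusted p = 0.0125). The difference of Ephx1 was then 0.32 (adjusted p = 0.38), that of Creg1 0.01 (adjusted p = 0.983) and that of Zfat 0.37 (adjusted p = 0.517), all by limma, and Gclm (-0.37) and Papolb (-0.08) changed sign. Of the 8 lower regions, those near Trpc7, Kmt2a, Ppp2r2b and 4930503B20Rik were still called. At all 8 regions higher in Bmal1-/- both Bmal1-/- libraries exceeded both WT libraries before scaling as well.

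**Figure D4:**
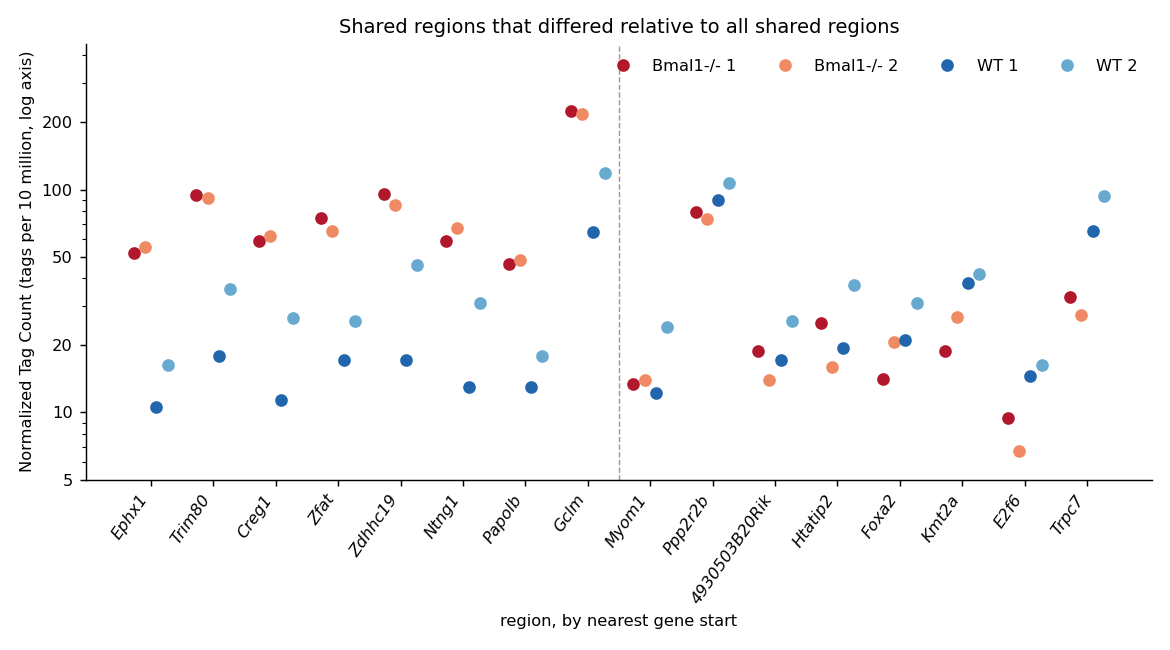
Normalized Tag Count (log axis) in each library (red, Bmal1-/-; blue, WT) at the 16 shared regions called after TMM scaling, ordered by relative log2 difference, with those higher in Bmal1-/- left of the dashed line. Ephx1 had 51.8 and 55.5 in Bmal1-/- and 10.6 and 16.3 in WT, and the region near Trpc7 33.0 and 27.4 in Bmal1-/- and 65.1 and 93.9 in WT.

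These 16 calls rested on 2 libraries a side. Leaving out either Bmal1-/- library left 0 calls by limma, with 44 regions at an unadjusted p under 0.05 each time. Leaving out WT replicate 1 gave 45 calls and WT replicate 2 gave 73, where the lone sample was assumed to vary like the other pair. DESeq2 on tags recovered from the same values called 1 region, near Trpc7, and edgeR 23. The region near Trpc7 had relative differences of -2.23, -1.95, -2.02 and -2.17 with each library left out in turn and was called without either WT library. Regions with AP-1 had a median relative difference of -0.03 (214 regions, 5 higher and 6 lower) and regions with neither motif 0.04 (232 regions, 2 higher and 2 lower). The 17 regions with an E-box had 0.09, with 1 higher, at the Creg1 promoter.

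Fold over input gave another set of regions. By limma on log2 Fold Change vs Control, 67 regions were higher in Bmal1-/- (13.1%) and 19 were lower (3.73%), with 169 (33.1%) at an unadjusted p under 0.05 and a median log2 difference of 0.31. Without WT replicate 1, limma called 0 regions, with 212 at an unadjusted p under 0.05 and a median of 0.05. The p-values are too small, since both replicates of a genotype share 1 input. Input tags moved with the calls: at the 67 higher regions they averaged 0.687 in Bmal1-/- and 2.87 in WT, and at the 19 lower regions 4.08 in Bmal1-/- and 0.421 in WT. At a region 118 kb from the start of Cpeb2, a translation regulator, folds were 156.97 and 136.68 in Bmal1-/- and 6.05 and 15.89 in WT, over 0 input tags in Bmal1-/- and 4 in WT. Its tag counts were 68.3 and 59.5 in Bmal1-/- and 19.5 and 51.2 in WT. At the Brpf1 promoter folds were 9.81 and 8.12 in Bmal1-/- and 74.66 and 50.08 in WT, while tag counts were 68.3 and 48.8 in Bmal1-/- and 30.1 and 40.4 in WT. The largest differences the other way were again near Trpc7, with folds of 9.47 and 7.87 in Bmal1-/- and 163.45 and 233.04 in WT, and in Ptpru (10.44 and 7.14 in Bmal1-/-, 64.57 and 134.82 in WT). The other regions named by size were Trim80, Dynlt1a, Hs3st1, Rngtt, Atf5, Polr2a, Cited2, Thsd7b and Tbx3, higher in Bmal1-/-, and Fhl2, Dgkb, Phlpp1, Dcp1a, Tns3, D6Wsu163e and Zfp61, lower. Fold over input correlated within genotypes (0.846 in Bmal1-/-, 0.741 in WT) and far less between them (0.224 to 0.375). Replicates of a genotype share 1 input and the genotypes do not, so this gap does not measure THRAP3 alone.

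Promoter peaks limited to 1 genotype were counted by gene. In both Bmal1-/- lists and no WT list there were 1800 genes, of which 1551 were protein-coding (7.07% of 21951). In both WT lists and no Bmal1-/- list there were 13, of which 12 were protein-coding (0.0547%). A gene counts with a peak at any of its transcript starts, so the lists need not share the place: 1529 of the 1800 (84.9%) and 10 of the 13 had the same region in both lists. These counts followed the lengths of the lists. At the top 808 peaks of each list they were 37 for Bmal1-/- and 13 for WT (28 and 1 of them among the genes of the full lists), and at the top 6128 of the 3 longer lists 804 genes were in both Bmal1-/- lists and no WT list. At that number 807 genes were in the WT replicate 2 list and neither Bmal1-/- list, of which 19 were also in the short WT replicate 1 list. Set 1 list against 1 list at 6128 peaks, a comparison chosen after seeing the data, 2045 genes were in Bmal1-/- replicate 1 alone against 1008 in WT replicate 2 alone, and 1600 in Bmal1-/- replicate 2 alone against 1105 in WT replicate 2 alone. Without WT replicate 1 they were 1821 and 554.

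The strongest promoter of the Bmal1-/- lists alone was that of Ank, a membrane protein needed for extracellular pyrophosphate, with 59.7 and 46.1 normalized tags in Bmal1-/- and no peak in either WT list. Tuba1c, an α-tubulin, followed with 40.8 and 34.8. The promoter shared by Ect2, a cytokinesis regulator, and the divergent lincRNA 1700125G22Rik had 43.2 and 30.7. Brd2, a reader of acetylated histones, had 34.6 and 31.4 at separate starts of the gene, and Nuf2, a kinetochore component, had 31.4 and 28.7. H2afv had 36.1 and 23.4, the promoter between Nudt2 and Kif24 had 25.9 and 33.4, and the snRNA gene Gm24407 had 26.7 and 30.1. A missing WT peak says only that the WT libraries did not reach the caller's threshold there. Promoters of WT alone were weaker: Slc2a5, a fructose transporter, had 9.76 and 19.4 at an internal transcript start, and the promoter between Tmem116 and Erp29 had 11.4 and 14. Oxsm (10.6 and 13.2), Hnrnpa1l2-ps (12.2 and 10.9), Btg1 (9.76 and 12.4), Ankrd17 with Gm9958 (9.76 and 12.4), Aff1 (8.95 and 13.2) and Ddr1 (9.76 and 11.6) came next, with peaks of the 2 WT lists that do not overlap in Oxsm, Aff1 and Ddr1. Away from promoters, and chosen after its values were seen, a Tshz2 intron had 39.9 and 56.7 in WT and no peak in Bmal1-/-.

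Core clock genes had promoter peaks in both genotypes. Of 24 clock genes, 9 and 12 had one in the Bmal1-/- lists (37.5 and 50%, beside 18.8 and 15.7% of all protein-coding genes), and 1 and 6 in the WT lists (4.17 and 25%, beside 0.752 and 6.78%). At the top 6128 peaks they were 5 and 9 in Bmal1-/- and 6 in WT replicate 2, beside 11.1 and 8.89% of all protein-coding genes in Bmal1-/- and 6.78% in WT replicate 2, so the larger Bmal1-/- count did not hold at matched numbers in both libraries. The Arntl promoter, the gene deleted in the clone, had 40.8 and 14 in Bmal1-/- and no peak in WT. The Clock promoter had 15.7 and 16 and the Cry1 promoter 12.6 and 12.7 in Bmal1-/-, with none in WT. The promoter of Csnk1d, a kinase of PER proteins, had 11 and 11.4 in Bmal1-/- and no peak in WT. Per3 (22 in Bmal1-/- replicate 1), Nr1d1 (12 in Bmal1-/- replicate 2) and Nr1d2 (18.7 in Bmal1-/- replicate 2) had a promoter peak in 1 list, and Nfil3 in WT replicate 2 alone (10.1). Just outside the promoter window, 325 bases past the Nr1d2 start, a peak had 19.6 in Bmal1-/- replicate 1 and 14.7 in WT replicate 2. Of the 5 genes of the SNARP complex, to which THRAP3 belongs, the Thrap3 promoter itself had 15.7 and 16.7 in Bmal1-/- and no peak in WT, and Bclaf1 had 25.9 in Bmal1-/- replicate 1 alone. Among 13 genes named in the study, Maz, a zinc finger factor, had 31.4 and 34.8 in Bmal1-/- and 17.9 in WT replicate 2, and Usf2, an E-box factor, had 14.9 in Bmal1-/- replicate 1 and 14.7 in Bmal1-/- replicate 2 at separate places, and none in WT. Cell cycle genes were at 54.3 and 57.1% in Bmal1-/- and 5.71 and 42.9% in WT. At the top 6128 peaks they were at 37.1 and 51.4% in Bmal1-/- and 42.9% in WT replicate 2, inside the range of the Bmal1-/- lists. They were led by Top2a (46.3 and 36.1 in Bmal1-/-, 27.9 in WT replicate 2). SR proteins and hnRNPs, the splicing regulators, were at 54.5 and 54.5% in Bmal1-/- and 3.03 and 33.3% in WT, and at the top 6128 peaks at 48.5 and 42.4% in Bmal1-/- and 33.3% in WT replicate 2. Hnrnph3 had 21.2 in Bmal1-/- replicate 1, 18 at another of its starts in Bmal1-/- replicate 2, and 9.76 and 12.4 in WT. Genes of β-cell identity were at 29.6 and 11.1% in Bmal1-/- and 7.41 and 0.0% in WT, or 18.5 and 3.7% in Bmal1-/- and 0.0% in WT replicate 2 at 6128 peaks, and 0 of 27 had a region of all lists within 10 kb. Of the exocytosis genes followed in the study, Cask had a promoter peak of 8.64 and 8.02 in Bmal1-/- and none in WT, Snap25 had intron peaks of at most 10 in single Bmal1-/- lists, and Madd had none.

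Per2, a repressor of the clock, carried peaks over its exons. Within the gene lay 12 and 9 peaks in Bmal1-/- and 4 and 11 in WT, and every one was centred on an exon, although exons make up 13.5% of the gene. The highest was over a large late exon (chr1:91423792-91424372), with 181.4 and 45.5 normalized tags in Bmal1-/- and 21.1 and 70.6 in WT. In Bmal1-/- the replicates disagreed: at the 9 Per2 regions of both lists, replicate 1 had 2.88 to 4.25 times the level of replicate 2. Over the 6553 regions of both Bmal1-/- lists the median of that ratio was 1.04, and 12 regions reached 2.5, of which 9 were at Per2 and 1 at the Arntl promoter. The groups overlapped at the highest exon and at a region 849 bases before an internal transcript start (chr1:91450551-91450854). The levels at that region were 82.5 and 19.4 in Bmal1-/- and 10.6 and 32.6 in WT. The input had between 0 and 9 tags at these peaks. Without the Per2 regions the scaled comparison called 27 regions, 13 higher and 14 lower. What these exon peaks come from was not tested. Per2 RNA was 9.37 ± 0.197 TPM in Bmal1-/- and 17.6 ± 1.19 TPM in WT cells (SD, n = 3 each).

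**Figure D5:**
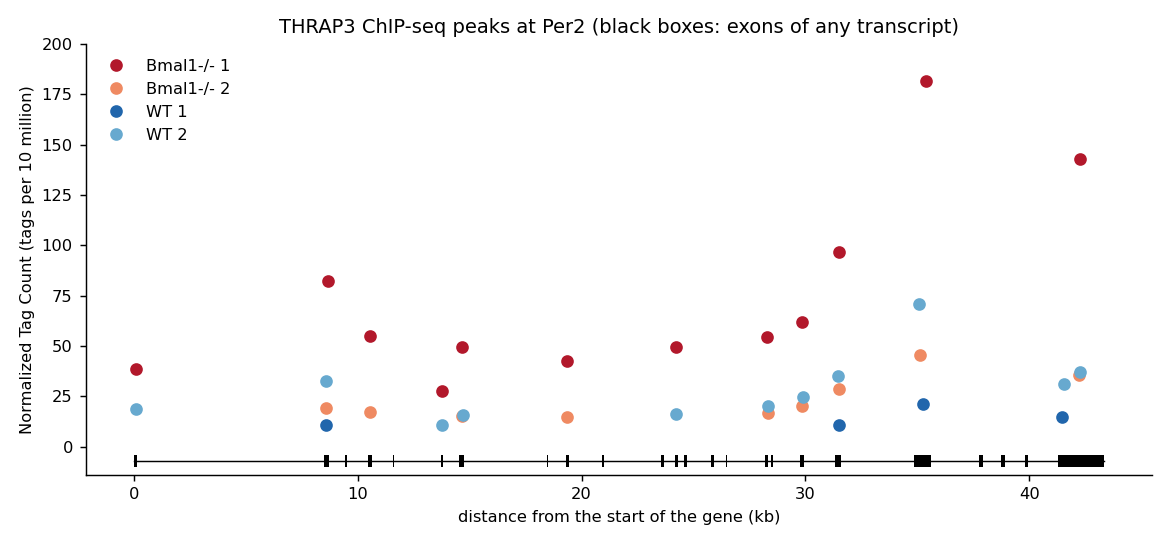
Normalized Tag Count of each peak within Per2 against its distance from the start of the gene in kb, with exons as black boxes along the bottom (red, Bmal1-/-; blue, WT). All peaks stand over exons, and Bmal1-/- replicate 1, up to 181.4, lies above the other 3 libraries at each exon where it has a peak.

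RNA of genes with a promoter peak in Bmal1-/- alone was about as often higher as lower. By limma on log2(TPM + 1), at an adjusted p under 0.01 and a log2 difference above 1, 575 of 15031 genes were higher in Bmal1-/- (3.83%) and 1198 lower (7.97%). Of the 1607 tested genes with a promoter peak in both Bmal1-/- lists and no WT list, 58 were higher (3.61%) and 56 lower (3.48%), with a median log2 difference of 0.03 beside -0.04 over all genes. The share higher was close to that of all genes, and the share lower was below it. Genes with no promoter peak in any list had 10.5% lower, at a median of 8.81 TPM in Bmal1-/- and 9.77 TPM in WT, against 29.7 TPM in Bmal1-/- and 28.5 TPM in WT in the first class, so RNA level differed between the classes as well. The largest rises were in Spon2, an extracellular matrix protein (60.2 ± 1.53 TPM in Bmal1-/-, 0.389 ± 0.0931 TPM in WT), Ccnjl, Gprc5c, Six2 and Hdac5, a class II histone deacetylase (60.9 ± 5.21 TPM in Bmal1-/-, 13.4 ± 0.916 TPM in WT). The largest falls were in Id1, an inhibitor of bHLH factors (13.4 ± 0.31 TPM in Bmal1-/-, 131 ± 11.7 TPM in WT), Slc41a2, Kcnh1, 1700019D03Rik and Tmem150a. Their promoter peaks were weak, between 8.64 and 18.1 normalized tags. None of the 9 strongest such promoters with RNA values belonged to a called gene. Of the WT-only promoters, Btg1 (129 ± 9.94 TPM in Bmal1-/-, 54.4 ± 3.98 TPM in WT) and Slc2a5 (304 ± 18.3 TPM in Bmal1-/-, 150 ± 5.59 TPM in WT) were higher in Bmal1-/-.

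Some antioxidant response genes differed in RNA. Of the 24 genes 1 was higher in Bmal1-/- (Nqo1, 7.12 ± 1.07 TPM in Bmal1-/-, 0.669 ± 0.315 TPM in WT) and 5 were lower (Hmox1, Srxn1, Slc7a11, Osgin1 and Me1), beside 3.83% higher and 7.97% lower of all genes tested. Hmox1 RNA was 71.7 ± 3.67 TPM in Bmal1-/- and 210 ± 18.4 TPM in WT (log2 difference -1.53 ± 0.08 SE, limma, adjusted p = 3.16e-07). Its 2 upstream regions had higher Normalized Tag Counts in both Bmal1-/- libraries, as did 349 of the 510 shared regions (68.4%). Neither Hmox1 region was among the 16 called after scaling. Gclm RNA was 100 ± 5.57 TPM in Bmal1-/- and 116 ± 7.71 TPM in WT and was not called. Among the genes nearest to regions called after scaling, Htatip2 RNA was lower in Bmal1-/- (16.4 ± 0.57 TPM, against 68.7 ± 3.32 TPM in WT; log2 difference -2.0, limma adjusted p = 5.3e-08). Ephx1 RNA (59.6 ± 0.564 TPM in Bmal1-/-, 77.7 ± 7.55 TPM in WT) and Creg1 RNA (187 ± 11.5 TPM in Bmal1-/-, 260 ± 10.2 TPM in WT) were not past the fold threshold, and both had a negative log2 difference where THRAP3 tags were higher. Zfat RNA (6.78 ± 0.27 TPM in Bmal1-/-, 4.54 ± 0.582 TPM in WT) was not past it either, and its log2 difference of 0.494 had the sign of its tags. Near regions lower in Bmal1-/-, RNA log2 differences were mixed. They were -0.767 for Ppp2r2b and -0.45 for E2f6, but 0.729 for Foxa2 and 0.504 for Kmt2a.

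Levels also differed by chromosome. Over the 2478 regions of both Bmal1-/- lists and WT replicate 2, chromosome 15 had the largest excess of Bmal1-/- input tags (log2 0.41 above all regions, SE 0.15) and of Normalized Tag Count (0.25 above), while its fold over input lay at -0.02 and its RNA at -0.21 relative to all genes. Chromosome 5 came next, at 0.18 in input and 0.16 in Normalized Tag Count. Chromosome 12, which holds the E2f6 region, had the largest deficit of both, at -0.24 in input (SE 0.13) and -0.17 in Normalized Tag Count. The Ank, Tuba1c and Zfat promoters lie on chromosome 15 and the Papolb region on chromosome 5. The part of chromosome copy number in the levels of these regions was not tested. On chromosome 5, 11% of protein-coding genes had a promoter peak in Bmal1-/- alone, and on chromosome 15 9.04%, beside 7.07% overall. Chromosomes 16 (10.1%), 10 (9.79%) and 3 (9.26%) also exceeded chromosome 15. Their input lay at -0.18, -0.02 and 0.00 relative to all regions (SE 0.16, 0.12 and 0.12). Whether this share follows the input was not tested.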

How the data were processed

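THRAP3 ChIP-seq peak lists of 2 Bmal1-/- and 2 WT libraries were analysed, with TPM of the 9 RNA-seq libraries of the series (3 Bmal1-/-, 3 Clock knockout and 3 WT, all in the fit and the TPM filter) as a second readout. The authors aligned reads to mm10 with Bowtie2 2.2.4 and called peaks per immunoprecipitate with HOMER over the 1 input of its genotype, at 4-fold over input and over the surrounding 10 kb, a Poisson p of 0.0001 and an FDR of 0.001. The deposited lists give Normalized Tag Count (a signal, scaled to 10000000 tags per library), the findPeaks score used for ranking, Fold Change vs Control (a ratio to input, with 0.5 in place of 0 input tags) and tags, which the authors left as raw counts in 1 list and scaled to the input in 3. RNA values are TPM, made by the authors with STAR 2.5.0 and featureCounts 1.5.3 on exons. 2 deposited DESeq2 tables hold the authors' own RNA comparisons and were not used.

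Because tags were whole counts in 1 of 4 lists, regions were tested with limma 3.58.1 (R 4.3.3) on log2 Normalized Tag Count, as fixed for that case for the unscaled comparison and used for the scaled one too, with edgeR 4.0.16 and DESeq2 1.42.0 on recovered whole tags as alternatives. Overlapping peaks were merged. TMM factors were 1.274 and 1.283 in Bmal1-/- and 0.616 and 0.994 in WT. Promoters and genes were taken from GENCODE vM21 (GRCm38) and motifs from RefSeq's GRCm38 sequence. RNA was tested with limma on log2(TPM + 1) for genes of at least 1 TPM in at least 3 of 9 libraries. P-values were Benjamini-Hochberg adjusted over all regions or genes. Of 20599 genes with TPM, 20499 matched the annotation, and 5 of 833 listed genes did not. The scripts were tested on simulated data. Alternatives covered the test, scaling, filters, peak threshold, promoter size, windows and each library left out.

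The members and gene lists were chosen with earlier results of these data known. Named were the 10 largest called rises and falls of each region test, the 10 highest shared regions, the 10 strongest promoters of each genotype alone, up to 3 members of each gene list described, members of the clock, SNARP and study lists (those without a promoter peak, or with one in few lists, mostly by count), and the 5 largest called RNA changes each way. Antioxidant genes were named in full after their values were seen. Depths of 12296107 to 14961095 tags gave a caller's threshold of 11 or 12 tags per peak, which limits the precision at weak peaks to counting error of that size.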

Additional observations from a re-analysis of the deposited data

How the results depend on the processing

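Counts of called regions moved with most settings. Per total tags, 14 calls became 5 with DESeq2, 87 with input tags as an offset, 1 per base of peak width, 0 with at least 20 tags in every library (28 at an unadjusted p under 0.05) and 0 with edgeR (132 unadjusted). With each library left out in turn they ran from 0 to 400. Relative to all shared regions, 16 calls became 1 with DESeq2, 8 with at least 20 tags, 121 (50 higher, 71 lower) with the input offset and 27 without Per2, and 0 to 73 with a library left out. Under the input offset Gclm (-0.37) and Papolb (-0.08) reversed, and Ephx1, Creg1, Zfat, Zdhhc19, Ntng1, E2f6, Foxa2, Htatip2 and Myom1 lost the call. With chromosome medians taken out there were 15 calls (5 higher, 10 lower), and E2f6, Ntng1, Gclm and Papolb lost theirs. Fold over input gave 86 calls, 133 (76 higher, 57 lower) with library medians taken out, 18 at a fold of at least 8, and 0 to 85 with a library left out. Replicate numbers are only names here: deviations of same-numbered ChIP libraries correlated at -0.07, and of RNA libraries at -0.09, 0.03 and -0.08. With the replicate block the region tests called 24, 0 and 0 (161 unadjusted for fold over input, 80 for the scaled comparison), and 115 RNA calls in place of 114.

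Overlap of the top 808 in Bmal1-/- was 55.9% by centres within 100 bases, 42.7% ranked by fold and 66.7% at a fold of at least 8. In WT it was 41.2% by centres and 28.1% by fold rank. Between genotypes it was 42.4% by centres and 19.1% by fold rank, and 40.6 to 55.2% with a library left out. At 6128 peaks the Bmal1-/- pair had 40.4, 42.8 and 49.6% and the pairs between genotypes 27.7, 27 and 27.5% under these 3 settings. Genes of Bmal1-/- alone numbered 612 at a fold of at least 8, 37 at 808 peaks, 804 at 6128 peaks, and 1821 to 3823 with a library left out. Genes of WT alone numbered 5 at that fold and 22 to 554 with a library left out. AP-1 shares averaged 20.9% in Bmal1-/- and 23.7% in WT in 100-base windows, 11.9 and 18.7% at promoter peaks, and 35.1 and 36.7% at distal peaks. E-box shares were 1.42% in Bmal1-/- and 1.61% in WT in 100-base windows, 6.38 and 6.13% at promoters, and 2.35% at distal Bmal1-/- peaks. Over the 16 regions called relative to the rest, 116 values under other settings kept their call and direction and 78 lost the call. The causes were not tested. The edgeR fits, the value per base of width, the Per2 omission, the 6128-peak gene counts and the antioxidant element were added after seeing the data.

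Limits are 2 libraries a genotype, 1 clone, 1 input a genotype with about 2 tags per region, and a WT list of 808 peaks that sets which regions and promoters can be compared. Peaks near the threshold of 11 or 12 tags cannot be told from absent ones.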

Other observations

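Immediate early genes and genes of the unfolded protein response, like protein-coding genes as a whole, had promoter peaks more often in Bmal1-/- lists. Of 29 immediate early genes, 8 and 9 had a promoter peak in Bmal1-/- and 1 and 0 in WT, beside 18.8 and 15.7% of protein-coding genes in Bmal1-/- and 0.752 and 6.78% in WT. They were led by Klf4 (22.8 and 15.4 normalized tags in Bmal1-/-, none in WT). At matched numbers of 6128 peaks they were 6 and 7 in Bmal1-/- and 0 in WT replicate 2, beside 11.1 and 8.89% of protein-coding genes in Bmal1-/- and 6.78% in WT replicate 2. By limma 1 of the 25 tested was higher in Bmal1-/- RNA and 11 were lower, beside 3.83% higher and 7.97% lower of all genes. Of 30 genes of the unfolded protein response, 10 and 9 had a promoter peak in Bmal1-/- (33.3 and 30%) and 0 and 2 in WT (0 and 6.67%). In both Bmal1-/- lists and no WT list were 3 of the 30, beside 7.07% of protein-coding genes. Hsp90b1 had the highest mean promoter level of these genes, with 18.7 in Bmal1-/- replicate 2 and 20.2 in WT replicate 2. By limma 13 of the 30 were lower in Bmal1-/- RNA, with a median log2 difference of -0.85 over the list. At 6128 peaks 6 and 6 of the 30 had one in Bmal1-/- (20% each) and 2 in WT replicate 2 (6.67%), beside the shares of protein-coding genes just given for that number.

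Of 79 genes of cytosolic ribosomal proteins, 34 and 21 had a promoter peak in Bmal1-/- and 1 and 9 in WT. At 6128 peaks they were 24 and 11 in Bmal1-/- and 9 in WT replicate 2, so Bmal1-/- replicate 2 lay near WT replicate 2, beside the shares of all protein-coding genes given above. Their median RNA log2 difference was 0.003. Rps28, at the promoter it shares with Ndufa7, was among the 13 genes of WT alone, with 8.95 and 9.31 normalized tags in WT and no peak in Bmal1-/-. Outside promoters, an intronic region at Gm11077 of which all 120 central bases are masked as repeat had 26 and 51.2 in WT and no peak in Bmal1-/-. It was chosen after its values were seen.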
